A study of Mus musculus with 3 samples.

Results

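Cartilage spots are the places in sections of embryonic mouse spine where collagen RNAs of cartilage took the largest share of the captured RNA. They were chosen by the summed UMIs of Col2a1, Col9a1 and Col9a3 over all UMIs of the spot, and the top 6% of spots with at least 1000 UMIs were taken in each section. This selected 143 of the 2374 kept spots of 2 sections, 61 of 1014 at E12.5 (E stands for embryonic day) and 82 of 1360 at E13.5. A UMI (unique molecular identifier) stands for 1 captured RNA molecule. The study placed frozen sections of mouse axial skeleton on Visium slides, arrays of barcoded spots that capture polyadenylated RNA, with 1 section at each of E11.5, E12.5 and E13.5. Spots are 55 µm across and 100 µm apart, on sections 10 µm thick, so a spot can hold several cells. The labels name no strain, genotype or treatment, and nothing that differs between the sections other than their titles. The titles give the stage and further letters and numbers whose meaning is not given. UMIs were summed over the cartilage spots of each section and scaled to a total of 1000000 (CPM), and the E13.5 value was divided by the E12.5 value. With 1 section a stage there is no test of the stage. Intervals are 95% intervals that cover counting error only, and they are exact except for ratios of ratios. Stage cannot be told apart from embryo, section plane or library.

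In the vertebral column, cells of the sclerotome, the ventral part of the somites, gather around the notochord under Sonic hedgehog signalling and turn on Sox9, Sox5 and Sox6. Those factors drive the collagens, aggrecan and link protein that make up cartilage matrix, and the condensations become vertebral bodies while the tissue between them forms the intervertebral discs. A fibrous layer, the perichondrium, surrounds young cartilage and carries collagens I, III, V and VI.

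The sums held 1133217 UMIs at E12.5 and 565660 at E13.5, and 1 UMI was worth 0.882 and 1.77 CPM. Cartilage spots were shallower at E13.5, with a median of 5046 UMIs (1090 to 20162) against 18181 (6345 to 33583) at E12.5, whereas the other spots had medians of 21769.5 and 24970.0. Mitochondrial genes took 0.607% and 0.333% of the UMIs, and genes of ribosomal proteins 14.6% and 16.7%, at E13.5 and E12.5. The part of depth and RNA quality in the stage ratios was not tested beyond the deeper spots described below. Of the array barcodes, which name positions, 696 occur in both sections and 11 among the cartilage spots of both. Spots of 1 section are not replicates, and in spots fewer cells of a type and less RNA per cell cannot be told apart.

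The collagen share that chose the spots ran from 0.925% to 3.82% at E12.5, with a median of 1.52%, and the best spot left out had 0.923%. At E13.5 it ran from 3.49% to 7.999%, with a median of 4.42%, and the best spot left out had 3.48%. The same rank therefore took spots of a higher collagen share at E13.5: 65 of 82 lay above the highest spot of E12.5. In the sums Col2a1 was 12005 CPM at E12.5 and 37130.1 at E13.5, Col9a1 1989 and 3301, and Col9a3 2372 and 7418, values that are part of the choice and no finding. The 6 cartilage genes used to check the label, Acan, Matn1, Matn4, Sox9, Hapln1 and Col11a2, were all higher in the chosen spots than in the other spots of both sections. Acan stood at 569 against 19.5 CPM at E12.5 and at 2378 against 145 CPM at E13.5. The label needs a reserve at both stages. At E12.5, 32 of the 61 spots held a UMI of T or Shh, genes of the notochord. At E13.5, where the spots were shallower, 20 of 82 did. A UMI of the skeletal muscle list was present in 60 of 61 spots at E12.5 and in all 82 at E13.5, with sums of 184 and 2595 CPM.

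**Figure D1:**
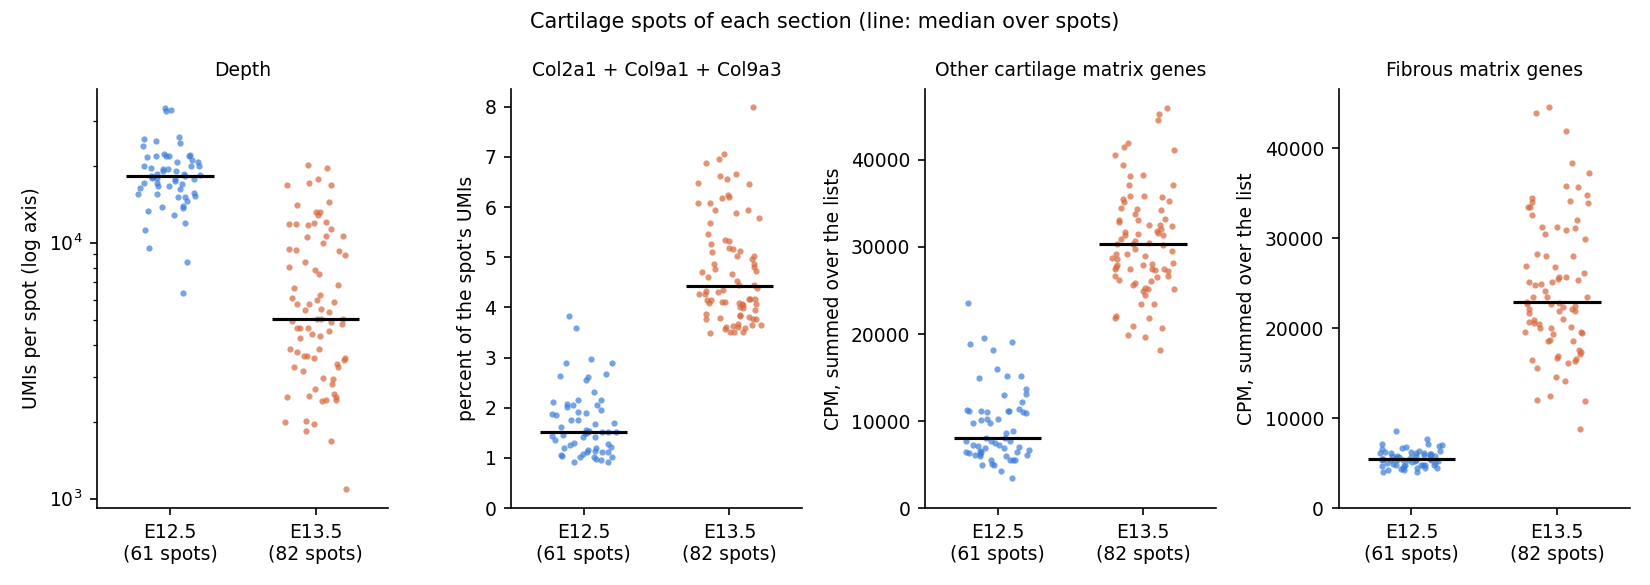
Each dot is 1 cartilage spot of the E12.5 or E13.5 section and each line a median over spots. The panels give UMIs per spot on a log axis, the collagen share that chose the spots in percent, and the summed CPM of the other cartilage matrix genes and of the fibrous matrix genes. Spots of E13.5 are shallower and lie higher in both matrix sums.

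Of 6132 genes with at least 50 UMIs over both sums, 425 (6.93%) were at least 2-fold higher at E13.5 and 512 (8.35%) at least 2-fold lower, and "rose" and "fell" below mean these calls. The median gene had a log2 ratio of -0.15, and -0.09 in the other spots. Scaling by the median of ratios instead of the total moved that median to 0.01 and the calls to 534 higher and 332 lower, so 61.7% instead of 45.4% of the called genes were higher. Of the 425 genes that rose, 202 were also at least 2-fold higher in the other spots, and of the 512 that fell, 78 were at least 2-fold lower there.

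Cartilage matrix rose as a group. Of 34 genes in the lists of cartilage collagens, proteoglycans and secreted cartilage proteins, 27 passed the minimum of 50 UMIs, 22 of these rose and 1 fell. Their median log2 ratio was 2.06, against -0.15 over all genes tested. The rank took spots of a higher collagen share at E13.5, and with E13.5 spots inside the share range of E12.5 the median was 1.44. In single spots the summed CPM of the lists ran from 3467 to 23580 with a median of 8084 at E12.5, and from 18132 to 46019 with a median of 30294 at E13.5, so the ranges overlapped little. These spot sums went with the collagen share that chose the spots, with Spearman correlations of 0.91 at E12.5 and 0.55 at E13.5. The same lists had a median of 2.05 in the other spots, where their sum was 999 CPM at E12.5 and 3519 at E13.5. Of the 27 genes, 4 had a ratio at least 2 times that in the other spots and 6 one at most 0.5 times. Of all genes tested, 209 (3.41%) and 265 (4.32%) did so. At E13.5, 205 spots had a collagen share inside the range of the E12.5 cartilage spots, and most of them counted as other spots. At E12.5 every other spot lay below that range. The values of the other spots therefore cannot show whether the rise was particular to cartilage.

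The largest ratios belonged to genes that were nearly silent at E12.5. Comp, cartilage oligomeric matrix protein, had 10 UMIs in 7 of 61 spots at E12.5 (8.82 CPM) and 392 UMIs in 69 of 82 spots at E13.5 (693 CPM), a ratio of 78.5 (interval 42.2 to 165). Ucma, a small secreted protein of young chondrocytes, had 5 UMIs in 5 spots (4.41 CPM) and 206 UMIs in 62 spots (364 CPM), a ratio of 82.5 (34.8 to 257). Cytl1, a secreted cytokine-like protein of cartilage, had 16 UMIs in 15 spots (14.1 CPM) and 463 UMIs in 62 spots (819 CPM), a ratio of 58.0 (35.3 to 102). When every spot was thinned to 2000 UMIs, leaving out 5 shallower spots of E13.5, the expected share of spots with a UMI went from 1.73% to 63.9% for Comp, from 0.835% to 49.3% for Ucma and from 2.64% to 59.9% for Cytl1. The median spot held 0 CPM of each of the 3 genes at E12.5 and 618 (Comp), 285 (Ucma) and 473 CPM (Cytl1) at E13.5. Comp rose as much outside, at 0.616 and 66.3 CPM in the other spots, whereas the ratios of Ucma (21.2) and Cytl1 (18.5) were smaller there.

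Proteoglycans and leucine-rich proteins bind collagen fibrils and hold water in the matrix. Of 13 tested, 9 rose and 1 fell. Acan, which encodes aggrecan, went from 569 to 2378 CPM (4.18-fold, 3.80 to 4.60). Fmod, fibromodulin, went from 137 to 2316 CPM (16.9-fold), more than in the other spots, where it went from 37.9 to 202 CPM. Prelp rose 8.28-fold, Snorc, a transmembrane proteoglycan of chondrocytes, 13.8-fold, Hspg2, which encodes perlecan, 5.69-fold, and Chadl, Chad and Cspg4 by 7.04, 3.74 and 3.47. Hapln1, the link protein that ties aggrecan to hyaluronan, was at 454 and 843 CPM, a ratio of 1.86 that did not pass 2-fold. Vcan, which encodes versican, the large proteoglycan of mesenchyme before cartilage forms, fell from 502 to 175 CPM (2.87-fold, 2.31 to 3.59), while the other spots had 208 and 186 CPM. Epyc and Susd5 were at 211 and 163 CPM and at 343 and 345 CPM.

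Among the secreted cartilage proteins all 10 tested rose. The matrilins, which link collagen fibrils to other matrix, stood at 71.5 and 700.1 CPM for Matn1 (9.79-fold, 7.69 to 12.6), 23.8 and 186 for Matn3, 620.4 and 1413 for Matn4, and 7.06 and 77.8 for Matn2. Cnmd, chondromodulin, an inhibitor of vessel growth, rose 2.42-fold, Mia 2.19-fold, Scrg1 7.86-fold and Mgp, matrix Gla protein, which holds back mineral, 2.06-fold. Mgp rose more in the other spots, from 66.3 to 561 CPM. The collagens of the fibrils were uneven: Col11a2 went from 833 to 5899 CPM (7.08-fold) and Col9a2 from 1583 to 4252 (2.69-fold), but Col11a1 from 1850.5 to 3065 (1.66-fold). Col27a1 was at 247 and 518 CPM, a call of 2.10-fold that ended among cartilage spots with at least 5000 UMIs, at a log2 ratio of 0.97.

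The promoters of the 5 matrix genes with the largest ratio among those with at least 100 UMIs and an entry in the RefSeq promoter table (GRCm38.p6) are shown because these genes moved together. Each is the 250 bases before the gene's start, 5′ to 3′ on the gene's strand, in lower case with matches of the SOX core ACAAT, on either strand, in capitals. Ucma lies on chr2:4975872-4976121 (plus), Cytl1 on chr5:37735269-37735518 (plus), Fmod on chr1:134037004-134037253 (plus), Matn1 on chr4:130944135-130944384 (plus) and Prelp on chr1:133921402-133921651 (minus).
Ucma: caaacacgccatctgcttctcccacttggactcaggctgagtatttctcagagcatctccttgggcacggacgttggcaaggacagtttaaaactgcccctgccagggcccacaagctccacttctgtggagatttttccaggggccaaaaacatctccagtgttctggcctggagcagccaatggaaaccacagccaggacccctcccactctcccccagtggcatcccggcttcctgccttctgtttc
Cytl1: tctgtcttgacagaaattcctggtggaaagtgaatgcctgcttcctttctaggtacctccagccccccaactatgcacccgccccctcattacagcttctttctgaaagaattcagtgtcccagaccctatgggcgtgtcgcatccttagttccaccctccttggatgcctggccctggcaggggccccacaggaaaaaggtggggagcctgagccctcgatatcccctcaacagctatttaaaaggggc
Fmod: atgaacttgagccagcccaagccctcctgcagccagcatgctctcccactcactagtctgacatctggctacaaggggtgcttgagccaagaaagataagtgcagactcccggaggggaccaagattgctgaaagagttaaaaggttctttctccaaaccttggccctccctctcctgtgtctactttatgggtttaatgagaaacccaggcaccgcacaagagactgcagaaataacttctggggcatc
Matn1: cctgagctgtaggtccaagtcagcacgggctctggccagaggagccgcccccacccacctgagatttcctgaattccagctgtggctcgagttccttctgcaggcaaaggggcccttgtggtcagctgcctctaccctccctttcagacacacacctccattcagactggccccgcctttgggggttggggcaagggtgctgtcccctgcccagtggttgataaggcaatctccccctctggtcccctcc
Prelp: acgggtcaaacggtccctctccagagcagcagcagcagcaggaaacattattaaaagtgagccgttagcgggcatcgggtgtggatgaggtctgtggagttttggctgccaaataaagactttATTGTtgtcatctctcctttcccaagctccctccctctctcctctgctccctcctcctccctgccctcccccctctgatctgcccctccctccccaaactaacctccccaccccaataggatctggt
The core was found in Prelp, once and on the reverse strand (ATTGT), and not in the other 4 windows. It was in the windows of 3 of the 17 matrix genes that rose, had at least 100 UMIs and had an entry, and in 27.7% of the 32851 promoters of the table. A match is a description of letters, and its absence says only that these letters are not in the window.

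**Figure D2:**
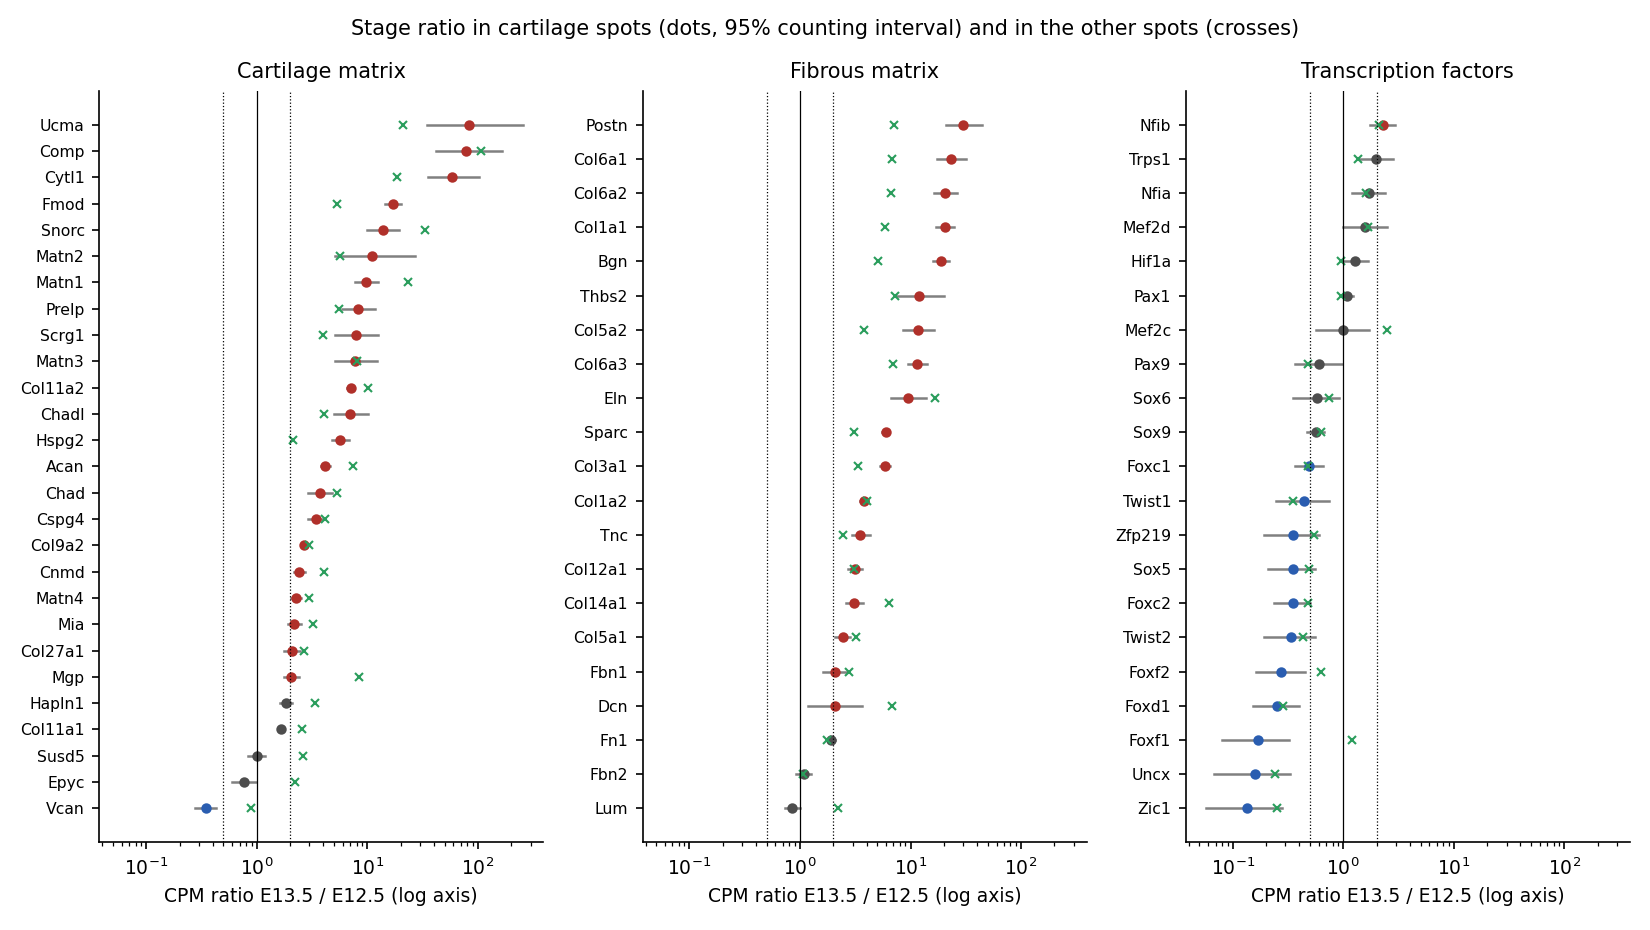
CPM ratio of E13.5 to E12.5 on a log axis for every tested gene of the cartilage matrix lists, the fibrous matrix list and the lists of transcription factors. Dots are cartilage spots (red where the ratio was at least 2, blue where at most 0.5) with 95% counting intervals, crosses are the other spots, and lines mark 0.5, 1 and 2. Matrix genes lie mostly to the right, the sclerotome factors mostly to the left and the chondrocyte factors on both sides.

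Most sclerotome transcription factors fell. Of 11 tested, 0 rose and 9 fell, and their median log2 ratio was -1.55, against -1.07 in the other spots. Foxf1, a hedgehog-responsive forkhead factor, had 118 UMIs in 36 spots at E12.5 (104 CPM) and 10 UMIs in 10 spots at E13.5 (17.7 CPM), 5.89-fold lower (3.09 to 12.6), while the other spots held 12.1 and 14.6 CPM. Foxf2 was at 122 and 33.6 CPM, Foxd1 at 148 and 37.1, Foxc2 at 173 and 60.1, Zic1 at 104 and 14.1, and Uncx, which marks the caudal part of somites, at 88.2 and 14.1, and all 5 fell. Twist1, Twist2 and Foxc1 fell too, but Twist1 and Foxc1 lost the call among cartilage spots with at least 5000 UMIs, at log2 ratios of -0.95 and -0.77. Pax1, the sclerotome factor retained in the forming discs, was level at 539 and 582 CPM (ratio 1.08, 0.941 to 1.24), with a median of 453 CPM over spots at E12.5 and 451 CPM at E13.5. Pax9 was at 67.1 and 40.7 CPM.

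The 3 SOX factors of cartilage stood lower at E13.5. Sox9 was at 485 CPM at E12.5 and 272 at E13.5, a ratio of 0.561 (0.466 to 0.672) that did not pass 2-fold. Its expected share of spots after thinning went from 60.4% to 40.0%. Sox5 fell from 106 to 37.1 CPM (2.85-fold, 1.78 to 4.78), and Sox6 was at 76.8 and 44.2 CPM. Of 10 factors in this list, Nfib rose (2.28-fold) and Sox5 and Zfp219 fell, and the other 7 did not pass, among them Trps1 at 60.0 and 118 CPM (1.97) and Nfia at 68.8 and 117 (1.70). The list had a median log2 ratio of 0.19, and of 0.19 in the other spots. At E11.5 the same rank of spots held 269 CPM of Sox9. The other spots had lower Sox9 at E13.5 too, at 69.0 and 43.7 CPM, and the ratio of ratios was 0.885 (0.730 to 1.07).

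Fibrous matrix rose beside cartilage matrix. Of 21 genes tested, 18 rose and 0 fell, with a median log2 ratio of 2.55, and of 2.03 in the other spots. The rises of Fbn1 and Dcn were near 2-fold, at log2 ratios of 1.06 and 1.05, and ended in 7 and 3 other settings. Their sum went from 5504 to 27244 CPM, and in single spots from a range of 4015 to 8623 CPM at E12.5 to one of 8829 to 44575 at E13.5, with no overlap. Col1a1, the main collagen of bone and tendon, had 126 UMIs in 49 spots (111 CPM) and 1282 UMIs in all 82 spots (2266 CPM), 20.4-fold (17.0 to 24.7). Its partner chain Col1a2 was already at 935 CPM at E12.5 and reached 3552 (3.80-fold). Col6a1 and Col6a2, chains of the collagen VI that surrounds cells, rose 23.1-fold and 20.7-fold, Bgn, biglycan, 18.9-fold, from 144 to 2722 CPM, and Postn, periostin, 30.0-fold, from 27.4 to 820.3 CPM. Sparc rose 5.99-fold, Fn1 was at 703 and 1329 CPM (1.89), and Lum at 494 and 423 CPM. In 6 genes of the list, Col1a1, Col5a2, Col6a1, Col6a2, Postn and Bgn, the ratio was at least 2 times that in the other spots. In 3 others of the list it was at most 0.5 times. Of all genes tested, 3.41% reached the upper limit and 4.32% the lower. Of 7 tendon genes 2 could be tested: C1qtnf3 rose, with 28 and 36 UMIs, and Scx was at 75.9 and 58.3 CPM.

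Muscle RNA moved with these groups. All 9 tested genes of skeletal muscle rose, with a median log2 ratio of 3.91, and the list's sum went from 184 to 2595 CPM, 14.1-fold, against 1881 and 9732 CPM in the other spots. A muscle UMI was present in all 82 spots of E13.5 and in 60 of 61 at E12.5, and single spots held 0 to 388 CPM at E12.5 and 871 to 8923 at E13.5. Mylpf, a myosin light chain of fast muscle, went from 48.5 to 735 CPM. The heart muscle list went from 8.82 to 265 CPM, and from 77.1 to 1424 CPM in the other spots. The regulators that define muscle cells were scarce, with 2 and 5 UMIs of Myod1 and 8 and 30 of Myog, and 0 UMIs of Myf5, Myf6 and Pax7 at E12.5. The part of RNA from neighbouring tissue in these results was not tested. Without the spots with most muscle UMIs, leaving 45 and 61 spots, of which those of E13.5 still held muscle UMIs, the median log2 ratios were 2.13 for cartilage matrix and 2.57 for fibrous matrix. Sums of other tissues were low: 221 and 205 CPM for neural genes, 114 and 163 for endothelium, 98.0 and 170 for macrophages, 125 and 70.7 for neural crest, 77.7 and 31.8 for epidermis and 49.4 and 38.9 for liver.

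Most notochord genes fell. Of 7 tested, 5 fell and 0 rose, and the list's sum went from 832 to 357 CPM while it went from 132 to 248 in the other spots. Shh, the hedgehog ligand made by notochord, had 200 UMIs in 24 of 61 spots at E12.5 (176 CPM) and 0 UMIs in 82 spots at E13.5, at least 33.3-fold lower against a floor of 3 UMIs. T, the brachyury factor, had 212 UMIs in 30 spots (187 CPM) and 30 UMIs in 20 spots (53.0 CPM), 3.53-fold lower (2.40 to 5.36). Krt18 went from 69 UMIs to 1 and Foxa1 from 57 to 1. Car3 was at 178 and 187 CPM and Ntn1 at 41.5 and 40.7. The notochord UMIs sat in few spots, as 5 spots held 55.0% of the Shh UMIs of E12.5. Without the spots that held T, leaving 31 and 62, cartilage matrix had a median log2 ratio of 2.30 and fibrous matrix of 2.67.

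**Figure D3:**
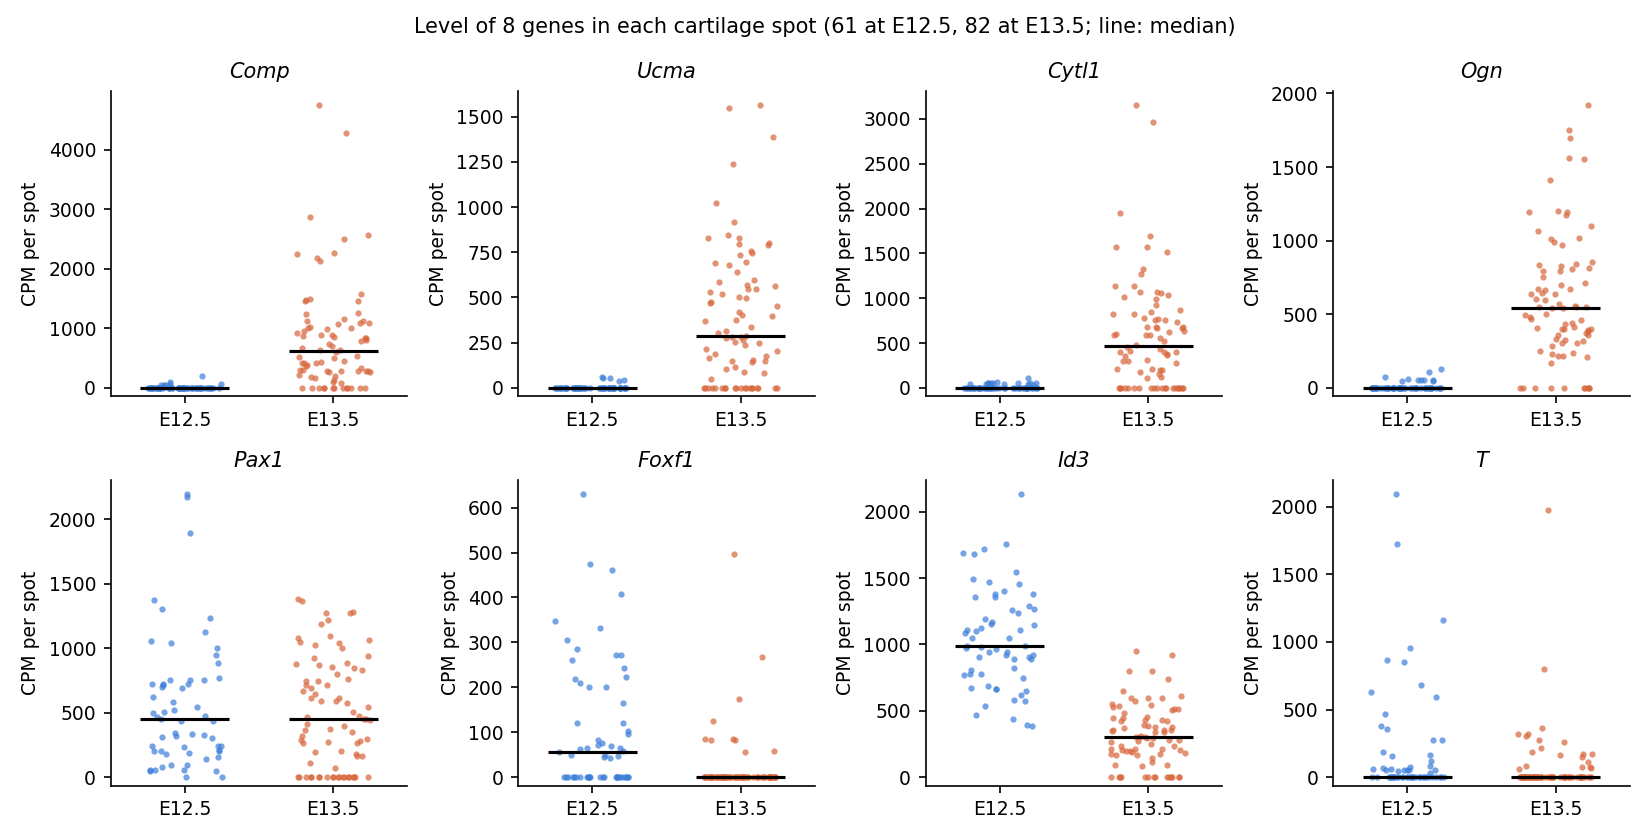
CPM per spot of 8 genes in the 61 cartilage spots of E12.5 and the 82 of E13.5, with the median as a line. Comp, Ucma, Cytl1 and Ogn are near 0 at E12.5 and spread upward at E13.5, Pax1 is level, Foxf1 and Id3 are lower at E13.5, and T is high in few spots of either section.

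Signalling genes were read list by list, here and below. Over all genes tested, 6.93% rose and 8.35% fell. In the hedgehog list 4 of 10 genes rose and 1 fell. Ptch1, receptor and target of the pathway, fell from 243 to 81.3 CPM (2.98-fold, 2.18 to 4.17), while the other spots had 55.8 and 49.1 CPM. The co-receptors Gas1, Boc and Cdon rose 3.66-fold, 3.68-fold and 2.54-fold. Hhip, which binds the ligand, was at 27.4 and 58.3 CPM, a rise of 2.13-fold. Gli1, a target, was at 124 and 152 CPM.

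In the BMP and GDF list 1 of 13 genes rose and 5 fell, with a median log2 ratio of -0.78 in cartilage spots and 0.07 in the other spots. Id3, an inhibitor of helix-loop-helix factors that BMP signals turn on, was at 1041 CPM at E12.5 (385.6 to 2135 over spots, median 990.05) and at 299 CPM at E13.5 (0 to 949, median 299), 3.49-fold lower (2.96 to 4.12). The other spots held 471 and 397 CPM of Id3. Id2 was at 249.7 and 74.2 CPM, and Id1 at 438 and 239 CPM with a ratio of 0.545. The ligand Gdf10 fell 3.84-fold, from 265 to 68.9 CPM, and Bmper, a secreted BMP binder, 3.68-fold, and both were higher at E13.5 in the other spots, with ratios of 1.69 and 1.501. Bmpr1a, a receptor, fell 2.17-fold, a call that ended with scaling by the median of ratios, at a log2 ratio of -0.94, and at matched collagen share, at -0.55. In this list 6 of the 13 genes had a ratio at most 0.5 times that in the other spots, as had 4.32% of all genes tested. Most E13.5 spots with a collagen share inside the range of the E12.5 cartilage spots were among these other spots.

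Of the 6 secreted Wnt inhibitors tested 4 rose. Sfrp5 had 6 UMIs at E12.5 and 93 at E13.5 (5.29 and 164 CPM, 31.1-fold, 13.7 to 86.8), Wif1 was at 22.1 and 143 CPM (6.49-fold) and Dkk3 at 16.8 and 76.0 (4.53-fold). Frzb was at 42.4 and 90.2 CPM, a call of 2.13-fold that ended in 6 other settings, with the smallest log2 ratio, 0.36, for the top 3% of spots. Sfrp1 was at 80.3 and 60.1 CPM and Sfrp2 at 63.5 and 99.0, and neither passed. The receptor Fzd9 rose 3.73-fold, whereas the receptor Fzd1 and the ligand Wnt5a fell 3.44-fold and 3.24-fold. Wnt5a was no longer past 2-fold without the spots that held T, at -0.92. Over the list 5 of 9 rose and 2 fell.

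Among TGF-beta genes 3 of 10 rose and 1 fell. Ltbp4 and Ltbp3, which anchor latent ligand in the matrix, rose 9.22-fold and 3.35-fold, Tgfbi 2.36-fold, and Ccn2, a growth factor of cartilage, fell 2.92-fold, from 212 to 72.5 CPM. In the list of IGF and imprinted growth genes, which does not hold the imprinted Peg10 and Nnat described below, 6 of 16 rose and 0 fell: Igfbp7, a binding protein, from 7 UMIs to 135 (6.18 to 239 CPM, 38.6-fold, 18.2 to 97.9), Igf1 7.14-fold, Meg3 7.11-fold, Dlk1 4.33-fold, Igfbp5 3.10-fold and Plagl1 2.41-fold. H19, at 6790.4 and 8747 CPM, and Igf2, at 2155 and 2532, did not pass. The list's sum went from 17769 to 26997 CPM, 1.52-fold. In the FGF list 1 of 6 rose, Etv5 at 2.23-fold, and Fgfr3, the receptor of proliferating chondrocytes, was at 273 and 315 CPM.

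The machinery that makes and folds matrix moved less than the matrix. Of 25 genes for collagen folding and crosslinking 6 rose and 1 fell, with a median log2 ratio of 0.72. Fkbp10, a collagen chaperone, rose 4.07-fold, Lox and Loxl1, which crosslink collagen, 5.48-fold and 3.58-fold, and Plod3 3.01-fold, while Plod2, also a lysyl hydroxylase, fell 2.26-fold. Serpinh1, the collagen chaperone HSP47, was at 1927 and 3118 CPM (1.62). Of 17 genes for sulfation and glycosaminoglycan synthesis 4 rose (23.5%) and 3 fell (17.6%), against 6.93% and 8.35% of all genes tested. Xylt1, which starts the chains, was at 20.3 and 91.9 CPM (4.53-fold), while Ugdh, which makes a sugar precursor, and Papss1, which makes the sulfate donor, fell 2.18-fold and 2.35-fold. The Ugdh call ended with scaling by the median of ratios, at -0.96. The other 3 rises, of Chpf, Chst12 and Extl1, each ended in several settings, among them matched collagen share. The fall of Chst14 ended in 7 settings.

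Genes of late cartilage were scarce. Of 20 hypertrophy and mineralisation genes only 4 reached 50 UMIs. Col10a1, the collagen of hypertrophic chondrocytes, and Mmp13 had 0 UMIs at both stages, where 3 UMIs would be 2.65 and 5.30 CPM, and Ihh had 3 UMIs at each stage. S100a1 rose from 8 UMIs to 54 (13.5-fold, 6.396 to 32.9) and Enpp1 3.53-fold. Pth1r, the receptor for parathyroid hormone-related protein, was at 163 and 322 CPM (1.97). Of 20 cell cycle genes 0 rose and 1, Mcm4, fell, with a median log2 ratio of -0.47, and Mki67 was at 240.0 and 232 CPM. Of 17 glycolysis and hypoxia genes 1 rose (5.88%) and 2 fell (11.8%). These shares, and the 5% of cell cycle genes that fell, were near the 6.93% and 8.35% of all genes tested. Ndufa4l2, a mitochondrial protein induced by low oxygen, rose 9.80-fold, from 40.6 to 398 CPM, Bnip3 fell 2.34-fold, and Slc2a1, a glucose transporter, fell 2.12-fold, a call lost with scaling by the median of ratios, at -0.91.

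Among the genes with large ratios outside the matrix lists was Ogn, osteoglycin or mimecan, with 12 UMIs at E12.5 and 401 in 72 spots at E13.5 (10.6 and 709 CPM, 66.9-fold, 37.9 to 131). Lbhd2 rose 30.3-fold and Col16a1 19.4-fold, and the muscle genes Myl1, Acta1 and Myl4 were among the 15 largest, as were Comp, Ucma, Cytl1, Igfbp7, Postn, Col6a1, Col6a2 and Col1a1. Relative to the other spots, large ratios of ratios were those of Igfbp7 (12.6, interval 5.84 to 27.0), Crip2 (8.64), Ogn (5.88), Rab11fip4 (5.34), Map2 (4.96), Mfge8 (4.82), Gas1 (4.22) and Postn (4.21). Gas1 was not higher at E13.5 outside, at 224 and 195 CPM. Map2, a neuronal protein, was at 65.3 and 53.0 CPM in cartilage spots while it fell from 119 to 19.5 CPM outside. All 3 tested neural genes had a ratio of ratios of at least 2, and their list's sum outside went from 2387 to 544 CPM. A ratio of ratios thus also depends on the tissue that the other spots of each section hold.

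**Figure D4:**
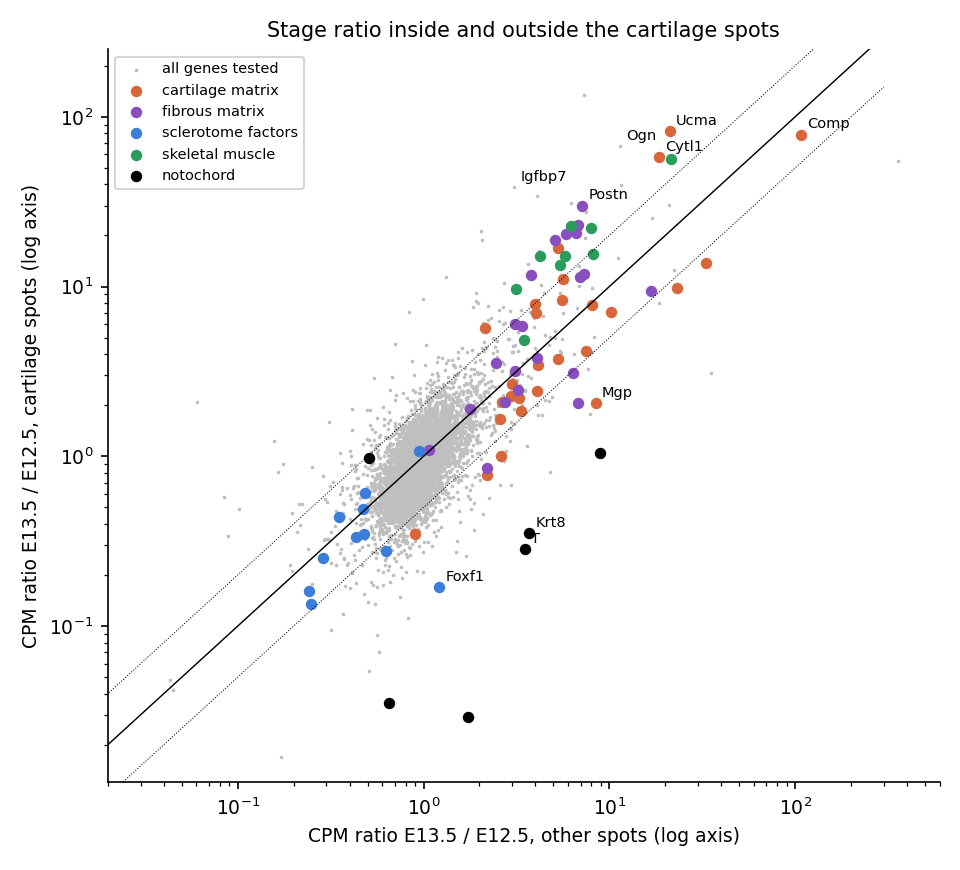
Each dot is a tested gene, with its CPM ratio of E13.5 to E12.5 in the other spots on the x axis and in the cartilage spots on the y axis, both on log axes. The solid line marks equal ratios and the dotted lines a 2-fold difference between them. Cartilage matrix genes lie on both sides of the solid line, 4 of them past the upper dotted line and 6 past the lower. Several fibrous and muscle genes lie above the upper dotted line. T, Krt8, Foxf1 and 3 fibrous genes are among the others below the lower one.

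Apart from Shh, the largest falls were those of Saa1, a serum amyloid protein, from 118 UMIs in 35 spots to 1 (104 and 1.77 CPM), and Epha7, an ephrin receptor, from 111 to 3. Asb4 was at 380.3 and 53.0 CPM (7.17-fold lower), Peg10, an imprinted gene, at 503 and 104 (4.82-fold lower) and Nnat, also imprinted, at 549 and 117 (4.70-fold lower). Peg10 was level in the other spots, at 98.7 and 98.2 CPM, whereas Nnat fell there as well, from 1217 to 239. Cpm, Zic1, Slit3, Uncx, BC006965, Foxf1, Jarid2, Lrig1 and Tpd52l1, all between 4.69-fold and 7.44-fold lower, were the rest of the 15 largest. The smallest ratios of ratios belonged to Shh, T (0.0806), Krt8 (0.0947), Saa1 and Epha7.

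Because the rank took spots of a higher collagen share at E13.5, the stages were also compared at a matched share, with the 205 spots of E13.5 whose share lay inside the range of the E12.5 cartilage spots. Only the range was matched, not the spread of shares within it. Most of these spots were not among the 82 cartilage spots of E13.5, of which 65 lay above the range. Cartilage matrix then had a median log2 ratio of 1.44 instead of 2.06, and fibrous matrix 2.39 instead of 2.55. The genes nearly silent at E12.5 stayed far higher, with log2 ratios of 5.76 for Comp, 5.32 for Cytl1 and 4.56 for Ucma, and Acan (1.02), Col11a2 (1.72) and Matn1 (2.31) stayed past 2-fold. Col9a2 (0.36), Matn4 (0.44), Cnmd (0.27), Mia (0.50), Chad (0.89), Cspg4 (0.96) and Col27a1 (0.47) did not, and Hapln1 and Col11a1 were at 0.15 and -0.03. Sox9 was past 2-fold lower in this comparison, at -1.19, and Foxf1 and Id3 stayed lower at -3.08 and -1.55. Foxc1, Twist1, Papss1 and Mcm4 were no longer past 2-fold, at -0.46, -0.34, -0.95 and -0.91. Depth differed less but still differed, with medians of 7842 and 18181 UMIs. With the 43 E13.5 spots of at least 5000 UMIs the median log2 ratios were 2.03 for cartilage matrix and 2.64 for fibrous matrix.

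Several calls near 2-fold ended under other choices. With the top 10% of spots the log2 ratios were 0.98 for Nfib, -0.99 for Plod2, -0.94 for Papss1, -0.89 for Bnip3, 0.99 for Tgfbi, -0.67 for T and -0.09 for Krt8. Averaging the CPM of spots instead of summing UMIs took Mgp to 0.97. At matched collagen share Etv5, Hhip, Tgfbi, Plagl1, Enpp1 and Rab11fip4 were at 0.75, 0.86, 0.71, 0.70, 0.91 and 0.25. With the top 3% of spots C1qtnf3 was at 0.85.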

How the data were processed

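The deposited files hold raw UMI counts per gene and spot for each section, and per the file headers the software was Space Ranger 1.2.0. The submitters' processing notes add STAR and the build mm10, and the annotation release is not given in the sources used here. The stage of a section was taken from its title. Each file lists 32285 genes, named by the files' symbols. No count was changed, and no doublet caller applies to spots. Counts of the chosen spots were summed per section. Ratios of CPM carry exact conditional binomial intervals and single values exact Poisson ones, both at 95%. Log2 ratios use a pseudocount of 0.5 UMI. A gene was called at a ratio of at least 2 or at most 0.5 with at least 50 UMIs over both sums. A ratio of ratios divides the ratio in cartilage spots by that in the other kept spots. Its 95% interval is a normal approximation on the log scale from the UMI counts. Promoters came from RefSeq tables of GRCm38.p6.

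Named genes were the 15 with the largest ratio in each direction among called genes with at least 100 UMIs, the 10 largest and 5 smallest ratios of ratios, and the members of the lists. Scoring, globin, mitochondrial, ribosomal protein, X-inactivation, Y-linked and unnamed genes and symbols used more than once were left out of the ranked genes. 1520401A03Rik, Gm42418 and Klhl13 were named after their values were seen. Globins are named as members of the erythroid list. The spots, lists and tests were chosen with earlier results of these data known. Alternatives changed the top share, the depth minimum, the scoring genes, the scaling, the UMI minimum, the fold and the pseudocount, and left out spots. The sums at matched share, of deeper cartilage spots and without muscle-rich spots were chosen after seeing the data. The steps were tested on simulated data. The versions were scipy 1.17.1 for intervals, pandas 2.3.3 and numpy 2.4.6 for tables, and matplotlib 3.10.9 for plots, under Python 3.11.15. Spot positions, images and the E11.5 section, apart from levels of single genes, were not used here. Some genes that the rule names are not reported here.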

Additional observations from a re-analysis of the deposited data

Results flagged for a closer look

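Krt8, T and Klhl13 were each at least 2-fold lower at E13.5 in the cartilage spots and at least 2-fold higher in the other spots of the same sections. The difference between the 2 directions was not tested, since each stage has 1 section. Krt8, a keratin of notochord and epithelia, had a log2 ratio of -1.48 (116 and 40.7 CPM) in cartilage spots and 1.89 (8.83 and 32.8 CPM) in the others. T was at -1.80 and 1.81. Klhl13, an adaptor of a ubiquitin ligase, was at -1.12 in cartilage spots, with 132 and 30 UMIs, and its ratio in the other spots was 2.09. Krt8 and T belong to the notochord list, and their values in cartilage spots depended on the choice of spots. With the top 10% of spots Krt8 was at -0.09 and T at -0.67, at matched collagen share Krt8 was at 0.44 and T at -0.22, and without the spots that held T, Krt8 was at 2.64.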

How the results depend on the processing

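Of 147 genes called or named in the lists with a ratio past 2-fold, between 119 (at matched collagen share) and 145 kept their direction past 2-fold under each alternative. The medians of both matrix lists stayed above 1.4 on the log2 scale under each alternative that gives one, the lowest being 1.44 for cartilage matrix at matched share. Genes higher and lower numbered 238 and 338 with the top 3% of spots, 790 and 1001 with at least 20 UMIs, 104 and 117 with at least 200, 3189 and 3100 with at least 1, and 887 and 1512 at a ratio of 1.5, against 425 and 512. Scaling by the median of ratios gave 332 lower. Genes rising at least 2-fold more than in the other spots numbered 107 with the top 3%, 507, 35 and 2456 with at least 20, 200 and 1 UMIs, and 397 at matched share, against 209. Those falling more numbered 644, 53 and 2836 at the same minimums, against 265. Reversals were few: without the spots that held T, Krt8 was at a log2 ratio of 2.64 and T at 0.49, and at matched share Krt8 was at 0.44 and Fabp7 at 0.24. Spots chosen to lack T cannot show its level. The cause of the other changes was not tested. No paired analysis was possible because each stage has 1 section, and for the same reason no section could be left out. Counting limits genes near the minimum of 50 UMIs, and 1549 genes had an interval wholly below 1 and 916 wholly above it.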

Other observations

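Of 7 erythroid genes tested 2 rose and 3 fell. The embryonic globin chains fell, Hbb-y from 988 to 47.7 CPM and Hba-x from 253 to 10.6, and Hbb-bh1 from 51 UMIs to 0, while the adult beta chain Hbb-bs rose from 83.8 to 896 CPM and Hbb-bt from 85.6 to 191. The adult alpha chains did not pass, with Hba-a1 at 379 and 258 CPM and Hba-a2 at 255 and 240.4. The call of Hbb-bt ended among cartilage spots with at least 5000 UMIs, at a log2 ratio of 0.84. In the other spots the ratios were 0.0432 for Hbb-y and 5.83 for Hbb-bs. The list's sum was 2091 CPM at E12.5 and 1649 at E13.5 in cartilage spots, and 14555 and 7936 in the others.

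The predicted gene 1520401A03Rik had 0 UMIs in the 61 cartilage spots of E12.5 and 401 UMIs in 65 of 82 at E13.5 (709 CPM), at least 268-fold higher against a floor of 3 UMIs. In the other spots it was at 3.20 and 30.6 CPM. RefSeq lists it as protein-coding on chromosome 17, 23704608 to 23726451. Gm42418 was at 243 and 1110.2 CPM in cartilage spots and at 587 and 411 CPM in the others. Both were singled out after their values were seen.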
